A study of Mus musculus with 8 samples.

Results

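Transcripts of 8 genes of the AP-1 family (Fos, Fosb, Fosl2, Jun, Junb, Jund, Atf3 and Batf) were measured in conventional CD4 T cells that had entered the central nervous system. The genes were taken by their symbols from the 32285 gene features shared by the 4 RNA matrices, without regard to their levels, and all 8 were present once. The cells came from Foxp3-Cre-YFP mice in which experimental autoimmune encephalomyelitis (EAE), a model of multiple sclerosis driven by T cells against myelin, had been induced by immunization. Tissue was taken at day 14 or at day 50, and the groups were brain at day 14, brain at day 50, spinal cord at day 14 and spinal cord at day 50. Meninges were removed from the brain, both tissues were digested with enzymes, and CD44+ Foxp3-YFP- TCRβ+ CD11b- cells were sorted. The genotype, the immunization, the digestion and the sort were common to all groups, and no group was unimmunized. Each group was 1 droplet library with RNA and counts of antibodies against CD69, P2X7 and CXCR6 in the same cells. The number of mice behind a library is not given in the labels, so library, mice and group cannot be told apart, and every interval below covers counting error only.

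AP-1 is a dimer of leucine zipper proteins. Fos proteins (Fos, Fosb, Fosl2) bind DNA only when paired with a Jun protein, Jun proteins (Jun, Junb, Jund) also pair with each other, and Batf and Atf3 are related factors that also pair with Jun proteins. In T cells, Fos, Fosb, Jun and Junb belong to the immediate early genes, whose short-lived messages follow antigen receptor and MAP kinase signals without new protein synthesis, while Jund is expressed more steadily. In helper T cells of the Th17 type, Batf and Junb act with Irf4 at shared sites, and Fosl2 is known to restrain the Th17 programme.

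The kept cells numbered 10313 in brain and 9270 in spinal cord at day 14, and 333 and 1605 at day 50, with medians of 2950 to 4921 UMIs (single captured RNA molecules) per cell. At least 99.9% of cells in each library held a UMI of Cd3e, Cd3d, Cd3g, Trac, Trbc2 or Cd4, and Cd4 itself was seen in 27.3% to 64.2%. Foxp3 had at most 2 UMIs in a library, Cd8a and Cd8b1 together 3.59 to 6.63 CPM (counts per 1000000 UMIs of the library), and 4 B cell genes 0.665 to 1.79 CPM. Microglia genes summed to 12.6 to 29.8 CPM, with P2ry12, Tmem119 and Sall1 at 0 at day 50, and neural genes to 45.7 to 75.8 CPM. The 6 genes for dendritic cells and macrophages summed to 194 CPM in brain and 217 CPM in spinal cord at day 14, and to 256 and 167 CPM at day 50, when Csf1r was at 0 in both tissues and Lyz2 in brain. Ribosomal protein genes took 34.1% and 30.8% of UMIs at day 14 in brain and cord, and 36.3% and 37.6% at day 50. The part of these differences in the AP-1 levels was not tested. At most 33 cell barcodes were shared by 2 libraries. No cell type that lacks these transcripts was at hand, so free RNA could not be measured for them.

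The bases just before the start sites of 4 members are shown as examples from each branch of the family and of the motif matches given next. They are RefSeq sequences of build GRCm38.p6, read 5′ to 3′ on the gene's strand, and each stretch of 120 bases ends at the base before the annotated start. Capitals mark matches to the motifs searched.
Fos, chr12:85473770-85473889, plus strand: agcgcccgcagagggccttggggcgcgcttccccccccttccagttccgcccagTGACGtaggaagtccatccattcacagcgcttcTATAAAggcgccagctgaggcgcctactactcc
Jun, chr4:95052223-95052342, minus strand: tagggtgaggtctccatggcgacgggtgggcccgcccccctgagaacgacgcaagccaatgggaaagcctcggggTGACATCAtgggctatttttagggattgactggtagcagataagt
Junb, chr8:84978749-84978868, minus strand: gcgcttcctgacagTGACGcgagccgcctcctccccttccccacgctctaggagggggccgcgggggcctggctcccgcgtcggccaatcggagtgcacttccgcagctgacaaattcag
Atf3, chr1:191183334-191183453, minus strand: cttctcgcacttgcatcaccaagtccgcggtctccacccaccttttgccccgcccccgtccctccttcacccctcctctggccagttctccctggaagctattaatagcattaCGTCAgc

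The half-site TGACG, the core of the element bound by CREB and ATF proteins, was found within 250 bases before the start of 5 of the 8 genes, on either strand, against 17.8% of 32851 promoters of that length. In Fos it began 129 and 66 bases before the start, in Fosb 60, in Junb 106 and in Batf 98 bases before it, and in Atf3 it lay on the other strand, from 7 bases before the start. TGACATCA, searched after the sequence had been seen, began 45 bases before the start of Jun and was in 2.93% of promoters. A TATAAA began 33 bases before the start of Fos and was in 12.4% of promoters. The AP-1 site TGANTCA was in 0 of the 8 windows and in 6.75% of promoters, the full TGACGTCA, which contains TGACG, in 0 and 1.55%, and the CArG box, the element bound by serum response factor, in 0 and 1.47%. Bases further than 250 before the start were not searched, so the counts of 0 do not show that a gene lacks the element. These matches describe the letters alone.

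Within the Fos family, Fos itself was higher in brain than in spinal cord at both days. It stood at 996 CPM in brain at day 50, 460 CPM in brain at day 14, 240 CPM in spinal cord at day 14 and 201 CPM in spinal cord at day 50. The 2 brain libraries were the higher ones, and no exact Poisson 95% interval overlapped another. In such summed levels, fewer expressing cells and less RNA per cell cannot be told apart. Fosb, a close relative of Fos that pairs with the same Jun proteins, was in the same order, at 210 CPM in brain at day 50, 149 CPM in brain at day 14, 127 CPM in cord at day 14 and 61.7 CPM in cord at day 50. Its intervals did not overlap either. Fosl2 followed the day instead: 79.8 CPM in brain and 68.1 CPM in cord at day 50, with overlapping intervals, against 36.4 and 25.5 CPM at day 14. Both day 50 libraries therefore lay above both day 14 libraries for Fosl2.

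In the Jun family, Junb had the most UMIs of the 8 genes in all 4 libraries. It had 5020.2 CPM in brain and 4252 CPM in spinal cord at day 50, and 2728 and 1229 CPM at day 14. The day 50 libraries were the high ones in both tissues, and the day 14 cord library was the lowest. Jund had the same order of libraries over a narrower range, with 1929.5 and 1245 CPM in brain and cord at day 50 and 1133 and 853 CPM at day 14. Jun, the classical partner of Fos and a strong activator, was high in 1 library only, at 624 CPM in brain at day 50. The 2 day 14 libraries, at 406 CPM in brain and 403 CPM in cord, had overlapping intervals, and cord at day 50 was lowest at 295 CPM.

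Atf3, a stress-induced factor that mostly represses as a homodimer, was rare at day 14, with 13.6 CPM in brain and 4.02 CPM in cord. At day 50 it reached 95.04 CPM in brain and 34.9 CPM in cord, above both day 14 libraries. Few cells made up the brain value: the 2 richest cells held 26.4% of its 106 UMIs there, against 12.8% for Fos and 2.50% for Junb. Batf ran the other way within a small range, at 88.5 and 73.1 CPM in brain and cord at day 14 and 61.9 and 55.2 CPM at day 50, and the interval of the day 50 brain library overlapped those of both cord libraries.

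**Figure D1:**
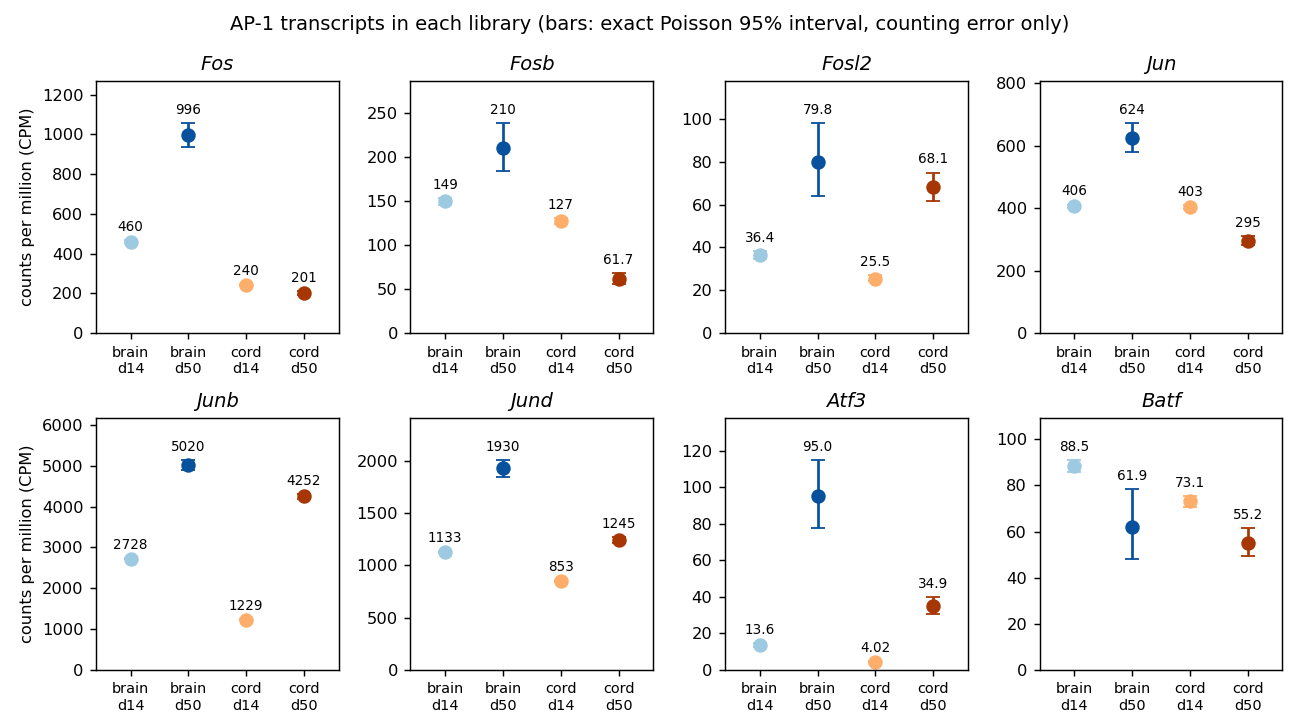
CPM of each AP-1 gene in the 4 libraries (vertical axis from 0, 1 panel per gene). Points are the summed counts of 1 library and bars the exact Poisson 95% interval. Fos and Fosb were highest in the 2 brain libraries, Fosl2, Junb, Jund and Atf3 in the 2 day 50 libraries.

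Summed over the 8 genes, AP-1 transcripts amounted to 5014 CPM in brain and 2955 CPM in cord at day 14, and 9016 and 6213 CPM at day 50. Junb supplied 54.4% and 55.7% of that sum in brain at day 14 and day 50, and 41.6% and 68.4% in cord. Within cord the make-up of the pool differed between the days. The share of Jun was 13.6% at day 14 and 4.75% at day 50, and that of Fos 8.13% and 3.24%. In brain the share of Fos was 9.17% and 11.0%, and that of Jun 8.09% and 6.92%. As each UMI marks 1 captured 3′ end, gene length was not divided out, and the capture of different genes may differ.

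For the question of how the genes stood in chronic against early disease, the 2 days were compared within each tissue. Levels were compared as log2 CPM ratios minus the median over 4678 genes at a mean of 20 CPM or more, and 1.5-fold either way counted as a call. The median that was subtracted was -0.13 in brain and -0.26 in cord. All 8 members passed this level filter, and no p-value is possible with 1 library per group.

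In brain, 7 of the 8 genes were higher at day 50, from all 3 branches of the family, and none was lower. Over all genes 8.59% were higher and 6.22% lower by the same rule. Atf3 rose most, by 2.93 (95% counting interval 2.62 to 3.23), and was 3rd from the top of all genes compared. Fosl2 rose by 1.26 (0.93 to 1.57), Fos by 1.24 (1.15 to 1.33), Junb by 1.01, Jund by 0.89, Jun by 0.75 and Fosb by 0.62. Batf, the partner of Irf4, stood at -0.39 (-0.75 to -0.05) and was not called. Fosb was the least firm of these: its value was 0.49 without the median subtraction, 0.34 after thinning every cell to 2000 UMIs and -0.09 in the cells with no UMI of 6 cytokine genes. In those cells Jun was at 0.29 and Fosl2 at 0.58, both under the call. Among cells with no Cd69 UMI Atf3 was at 1.94, Fosl2 at 0.64, Jun at 0.46 and Batf at 0.18.

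In spinal cord the family split. Atf3, Junb, Fosl2 and Jund were higher at day 50, Fosb was lower, and Fos, Jun and Batf passed in neither direction, where 10.9% of all genes were higher and 9.92% lower. Atf3 rose by 3.38 (3.09 to 3.66), again 3rd from the top. Junb rose by 2.05 (2.03 to 2.07), which placed it 19th, and Fosl2 by 1.68 and Jund by 0.81. Fosb fell by 0.78 (interval of the log2 ratio -0.94 to -0.63). Fos stood at 0.01 (-0.08 to 0.09) and Jun at -0.19 (-0.26 to -0.12). Jund was at 0.55, under the call, without the median subtraction, and Fosb was at -0.40 in cells with a Cd69 UMI. In cells with no cytokine UMI Atf3 was at 4.05 and Jun at -0.71, past the call.

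The change of Fos from day 14 to day 50 was 1.23 log2 units larger in brain than in cord (counting interval 1.11 to 1.35). That of Fosb was 1.40 larger (1.16 to 1.64) and that of Jun 0.93 larger (0.80 to 1.06). Junb had the opposite sign, with a change 1.05 smaller in brain (difference -1.05, -1.09 to -1.004), and Fosl2 and Atf3 were at -0.42 and -0.45. Jund differed by 0.09 and Batf by -0.25 (-0.63 to 0.13), the only interval of the 8 that held 0. These intervals compare 4 single libraries and not the conditions.

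Between the tissues, AP-1 transcripts were never higher in spinal cord by the call. At day 14, Atf3, Junb, Fos and Fosl2 were lower in cord, 4 of 8, where 3.46% of all genes were lower and 3.4% higher. The log2 ratio of cord over brain was -1.90 (-2.13 to -1.67) for Atf3, -1.29 (-1.31 to -1.28) for Junb, -1.08 (-1.11 to -1.05) for Fos and -0.66 for Fosl2. Jund at -0.55, Batf at -0.42, Fosb at -0.38 and Jun at -0.15 did not pass. The median over all genes, 0.14, was subtracted here too; without it Fosl2 was at -0.52, under the call. Jund passed in thinned cells, at -0.61, and Batf in cells with no Cd69 UMI, at -0.65.

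At day 50 it was Fos, Fosb, Atf3, Jun and Jund that were lower in cord, 5 of 8, against 5.28% of all genes lower and 3.25% higher. Fos was at -2.35 (-2.46 to -2.23), Fosb at -1.81 (-2.05 to -1.56), Atf3 at -1.48 (-1.83 to -1.13), Jun at -1.12 and Jund at -0.67. Junb, which differed by tissue at day 14, stood at -0.28 (-0.32 to -0.24) at day 50, and Fosl2 at -0.27 and Batf at -0.20 had intervals that held 0. Jund was at -0.51 where only cells with 1000 or more genes were kept. In cells with no cytokine UMI, Atf3 was at -0.84, and in cells with no Cd69 UMI Batf was at -0.92 and Jund at -0.52. The day and tissue comparisons share their libraries, so a high value in the day 50 brain library enters the brain comparison and the day 50 comparison alike.

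**Figure D2:**
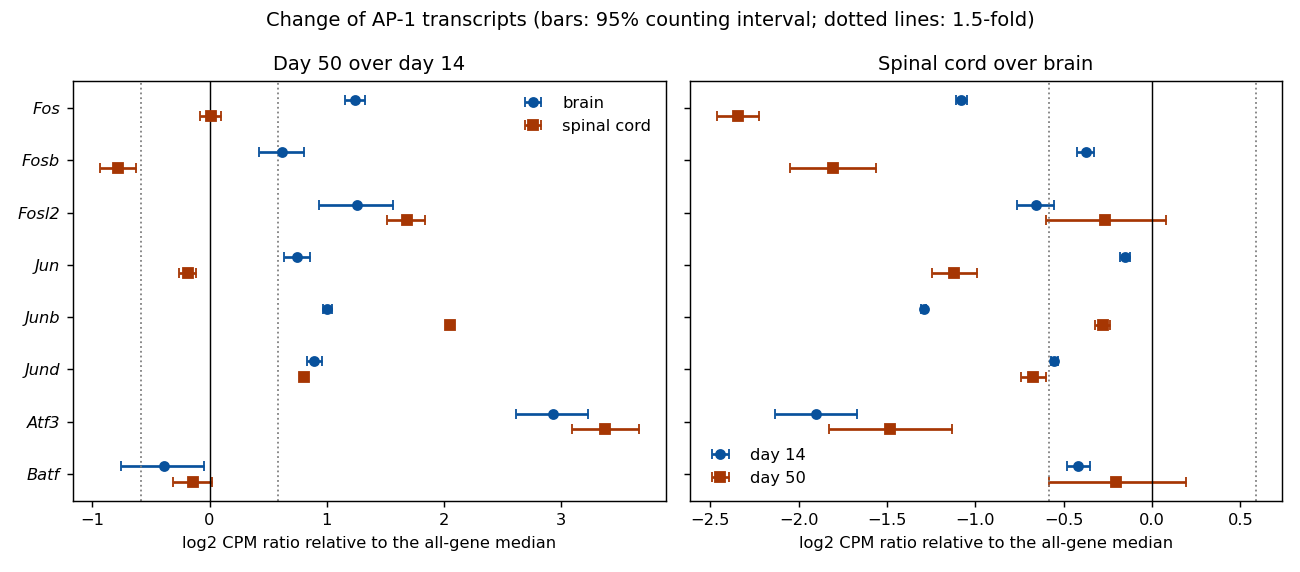
Log2 CPM ratios of the 8 AP-1 genes relative to the all-gene median, for day 50 over day 14 (left, blue circles brain, brown squares spinal cord) and for spinal cord over brain (right, blue circles day 14, brown squares day 50). Bars are 95% counting intervals and dotted lines 1.5-fold. Fos, Fosb and Jun separate by tissue on the left, while Junb lies at 1.01 in brain and 2.05 in cord.

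Other genes of the same circuit were read beside the members from lists. Of 24 other leucine zipper genes, 13 passed the level filter, and 5 were higher and 0 lower at day 50 in brain (median 0.26), 5 higher and 2 lower in cord (0.19). Maff, a small Maf protein without a transactivation domain, was called with Atf3 in 3 of the 4 comparisons, at 1.17 in brain and 3.08 in cord over time and at -1.92 for cord over brain at day 14. Of 19 other immediate early genes, 16 passed the filter, and 11 were higher and 0 lower at day 50 in each tissue, with medians of 0.76 in brain and 0.77 in cord, beside 0.95 and 0.41 for the 8 AP-1 genes and 0 for all genes, since their median was subtracted. Egr1, a zinc finger factor of the same early wave, rose by 2.17 in brain and 1.63 in cord, and Ier3 by 1.24 and 2.34.

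In cord over brain, 12 of these 16 immediate early genes were lower at day 14 (median -0.90) and 10 at day 50 (-0.82), where the AP-1 medians were -0.61 and -0.90. Zfp36, which destabilizes AU-rich messages, was at -1.64 and -2.44. Of 18 MAP kinases and serum response factors, which act upstream of Fos, 9 passed the filter, and 0 were higher and 1 lower over time in brain (median 0.05), and 0 and 3 in cord (-0.20). Cord over brain, 1 was higher and 0 lower at day 14 (0.20), and 0 and 1 at day 50 (-0.02). Of 8 factors that share sites with AP-1, 6 passed; 0 were higher and 1 lower in brain (-0.19), 0 and 2 in cord (-0.55), with Nfatc2 at -0.72 and Runx1 at -0.73 in cord. Irf4 and Irf8 were under the level filter. Of 10 heat shock genes, which mark a stress response of the cell, 8 passed, with 0 called in brain (median -0.04), and in cord 2 higher, Dnajb1 and Hspe1, and 1 lower, Hsph1 (0.08). Hspa1a and Hspa1b were under the level filter. Cord over brain, Hsph1 alone was called, higher at day 14 (0.75) and lower at day 50 (-0.62).

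The share of cells with a UMI was compared after each cell had been thinned to 2000 UMIs, in 9150 and 237 brain cells and 9128 and 1478 cord cells at day 14 and day 50. Cells under that depth were left out, 1163 and 96 in brain and 142 and 127 in cord. A share counts cells with a captured molecule, not cells that express the gene.

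Junb was nearly universal. It was seen in 92.4% (exact binomial 95% interval 91.9 to 93.0) of brain cells at day 14, 96.2% (92.9 to 98.2) at day 50, 77.4% (76.5 to 78.3) of cord cells at day 14 and 95.4% (94.2 to 96.4) at day 50. Because so many cells had it, its higher day 50 level lay mostly in the amount per positive cell, with means of 6.37 and 10.9 UMIs in brain and 3.47 and 9.26 UMIs in cord at day 14 and day 50. Jund was seen in 82.3% and 89.9% of brain cells and in 74.4% and 83.2% of cord cells.

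Fos was seen in 44.9% (43.9 to 45.9) of brain cells at day 14 and 55.3% (48.7 to 61.7) at day 50, and in 28.7% (27.8 to 29.6) and 25.5% (23.3 to 27.8) of cord cells. Positive cells held a mean of 2.29 and 4.05 Fos UMIs in brain and 1.85 and 1.63 in cord, with medians of 2 in both brain libraries and 1 in both cord libraries. In brain the mean was thus higher at day 50 while the median was the same. The 10% of cells richest in Fos held 50.6% and 59.1% of its UMIs in brain at day 14 and day 50, and 60.7% and 62.5% in cord. Jun was seen in 41.6% and 51.1% of brain cells and in 43.2% and 30.3% of cord cells, and Fosb in 20.3% and 23.2% of brain and 17.3% and 7.58% of cord cells.

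The rarer members were present in a minority of cells throughout. Fosl2 was seen in 6.87% and 14.3% of brain cells and in 5.01% and 10.9% of cord cells at day 14 and day 50, and Batf in 14.8% and 10.1% of brain and 12.9% and 9.68% of cord cells. Atf3 was seen in 2.03% (1.75 to 2.34) of brain cells at day 14 and 6.33% (3.59 to 10.2) at day 50, which is 15 cells, and in 0.701% (0.540 to 0.894) and 3.99% (3.05 to 5.12) of cord cells. Without thinning the shares were higher where cells were deeper, for instance 60.4% and 61.3% for Fos in brain.

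At this depth a cell held UMIs of a median of 3 of the 8 genes in every library. At least 5 of the 8 were seen together in 13.2% and 21.1% of brain cells and in 7.77% and 5.41% of cord cells at day 14 and day 50. In brain, Fos, Jun and Junb were seen together in 22.0% of cells (21.2 to 22.9) at day 14 and 31.6% (25.8 to 38.0) at day 50. In cord the 3 were seen together in 14.5% (13.7 to 15.2) at day 14 and 10.0% (8.53 to 11.7) at day 50. By share, cells with the 3 messages at once were thus more common in the brain libraries and least common in cord at day 50. The summed AP-1 level of that cord library was nevertheless below that of brain at day 50 alone.

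From cell to cell, the immediate early members and Jund were positively correlated in each library. Across cells within a library, the Pearson correlation of log counts was highest for Fos and Fosb, at 0.35 in brain at day 14 (9150 cells), 0.38 in brain at day 50 (237 cells), 0.33 in cord at day 14 (9128 cells) and 0.22 in cord at day 50 (1478 cells). Averaged over the 4 libraries, 8 of the 28 pairs were above 0.2: Fos with Fosb, Junb, Jun and Jund, Junb with Jund and Jun, and Jun with Jund and Fosb. Junb and Jund had a mean of 0.28 and Fos and Junb 0.26. Of the 28 pairs, 20 were positive in every library. The share of all gene pairs past these limits was not computed, so the counts are not a trait of the family. Junb had a mean of 0.29 with the histone gene H3f3b and 0.24 with the ribosomal protein gene Rps27, which are not members. At 1000 UMIs per cell 2 pairs were above 0.2, Fos with Fosb and Junb with Jund. These cells share a library and a fixed depth, and the values are a description.

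For Batf the highest mean correlation with another member was -0.004, with Jund. Atf3 and Fosl2 were weakly tied to Junb, with means of 0.11 and 0.10. Such values near 0 in sparse counts carry no finding. Junb in the day 50 brain library, which has the fewest cells, was at 0.44 with Jund and 0.41 with Fos, the highest of the 4 libraries for these 2 pairs, but at 0.21 with Jun, where cord at day 50 had 0.23.

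**Figure D3:**
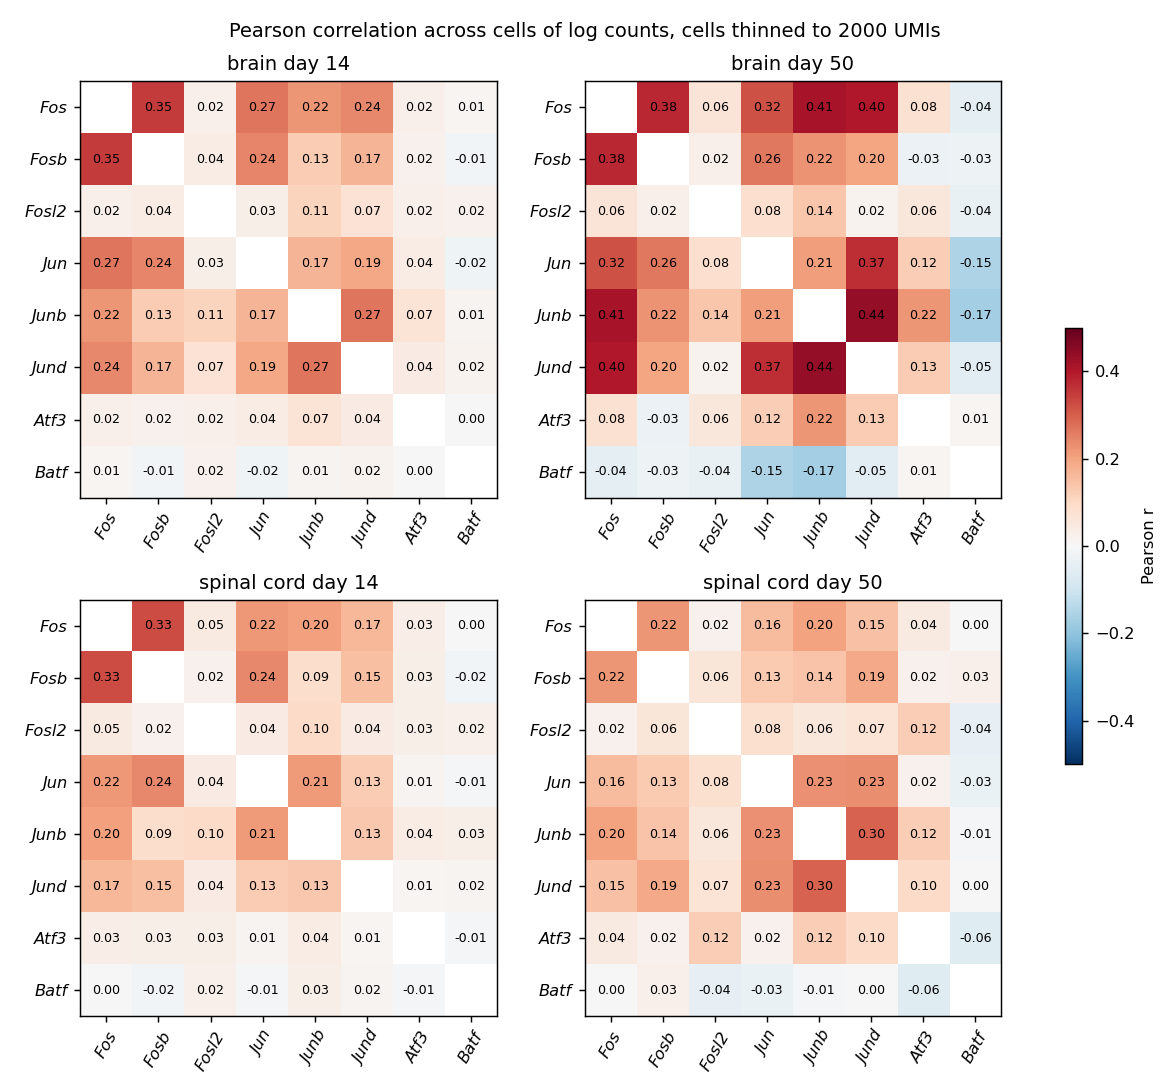
Pearson correlation across cells of log counts for each pair of AP-1 genes, 1 panel per library, after thinning each cell to 2000 UMIs (colour and printed value, red positive, blue negative). Fos, Fosb, Jun, Junb and Jund form a block of positive values in all 4 panels, from 0.09 for Fosb with Junb in cord at day 14 to 0.44.

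The genes most like each member from cell to cell were sought among 3165 genes seen in 5% or more of cells in each library, by the mean correlation over the 4 libraries. For Fos they were Fosb (0.32), Junb (0.26), Zfp36 (0.26), Dusp1 (0.25), a phosphatase that switches off MAP kinases, and Jun (0.24). Jun went most with Egr1 (0.25), Fos, Jund, Cd69 (0.22), an early activation receptor that also keeps T cells in tissue, and Fosb. The 5 closest genes to Jund were 4 AP-1 members and Zfp36. Junb went most with H3f3b (0.29), a replication-independent histone, Jund, Pnrc1 (0.27), Fos and the ribosomal protein gene Rps27 (0.24). Those of Fosb were Fos, Jun, Klf6 (0.20), Zfp36 and Jund. For Atf3 the closest after Junb were Dusp5 (0.11), Hilpda, Bhlhe40 and Rgs2, for Fosl2 after Junb Btg2, Pim1, Gadd45b and Egr1, and for Batf Rilpl2 (0.08), all at 0.11 or less.

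Cells were split by 6 cytokine genes, and among members read in 3 or more libraries Tnf had the most above 0 in every library. In Tnf-positive over Tnf-negative cells the log2 ratios of Fos, Jun and Jund were above 0 in every library, 3 of the 8 members, where 15.7% of 3403 genes were above 0 throughout. Tnf-positive cells held 2439 CPM of Fos against 842 CPM in negative cells in brain at day 50, and 371 against 186 CPM in cord at day 50. At day 14 the values were 580 against 506 CPM in brain and 297 against 259 CPM in cord. The excess was thus larger in both day 50 libraries. As log2 ratios Fos was at 1.53 (counting interval 1.27 to 1.79) and 0.99 (0.70 to 1.28) at day 50 in brain and cord, and at 0.20 in both tissues at day 14. Whether the ratio differs between the days was not tested across animals.

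Jun was at 1.13 in both day 50 libraries, and at 0.42 and 0.13 at day 14 in brain and cord. The share of all genes past 1.5-fold in these day 50 splits was 6.64% in brain and 5.32% in cord. No member was past 1.5-fold in Tnf-positive cells of every library, where 0.264% of genes were, and 41 cells were Tnf-positive in brain at day 50. Fosb was at 1.53 in brain at day 50 and at -0.45 (-1.36 to 0.34) in cord.

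With Ifng, the lead cytokine of Th1 cells, Jun alone of the 8 was above 0 in every library, where 18.8% of 6087 genes were. Its log2 ratios were 0.05 and 0.50 in brain and 0.25 and 0.74 in cord at day 14 and day 50. Fos was at -0.31 (-0.38 to -0.25) in brain at day 14 and at 0.48 (0.22 to 0.74) at day 50, so the sign differed between libraries.

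With Il17a, the lead cytokine of Th17 cells, Fosl2 was higher in the positive cells of both libraries where it could be read. In Il17a-positive cells it had 63.7 CPM against 36.9 CPM in brain at day 14, and 58.3 against 25.4 CPM in cord at day 14. These are log2 ratios of 0.79 (0.43 to 1.13) and 1.20 (0.73 to 1.64), both past 1.5-fold, as were 5.25% and 5.63% of all genes in these libraries. Atf3, read in brain at day 14 alone, had 28.2 against 12.5 CPM, from 35 UMIs in the positive cells. Its log2 ratio of 1.18 (0.62 to 1.70) was larger than that of Fosl2 in that library. Fos was at 0.15 and 0.50 at day 14 in brain and cord and at -1.07 and -0.14 at day 50, Batf at 0.10 and 0.41 at day 14, and Junb between -0.18 and 0.33. At day 50 only 24 and 37 cells were Il17a-positive, too few to read Fosl2, Batf or Atf3. In Il22-positive cells, read at day 14 alone, Fos, Jun, Junb, Jund and Batf were above 0 in both tissues, with a mean of 0.54 for Jun and 0.48 for Batf. The share of all genes above 0 in both was not computed. The intervals of Fos held 0 in both tissues and that of Jund in brain. Fosb was at -0.30 in brain and 0.44 in cord, and Fosl2, read in brain alone, at -0.52. In Il2-positive cells Fos was at 0.76 (0.59 to 0.93) in brain and 0.54 (0.20 to 0.85) in cord at day 14. In cord at day 50 it was at -0.35 (-0.94 to 0.19). Fosl2 was at 0.60 in brain at day 14 and 0.64 in cord at day 50 there, with intervals that held 0. With Csf2, Fosl2 was at -0.05 in brain and 0.72 (0.18 to 1.22) in cord at day 14. Past 1.5-fold higher were 4.57% and 5.38% of genes in these Il2 splits, and 6.42% with Csf2 in cord at day 14.

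**Figure D4:**
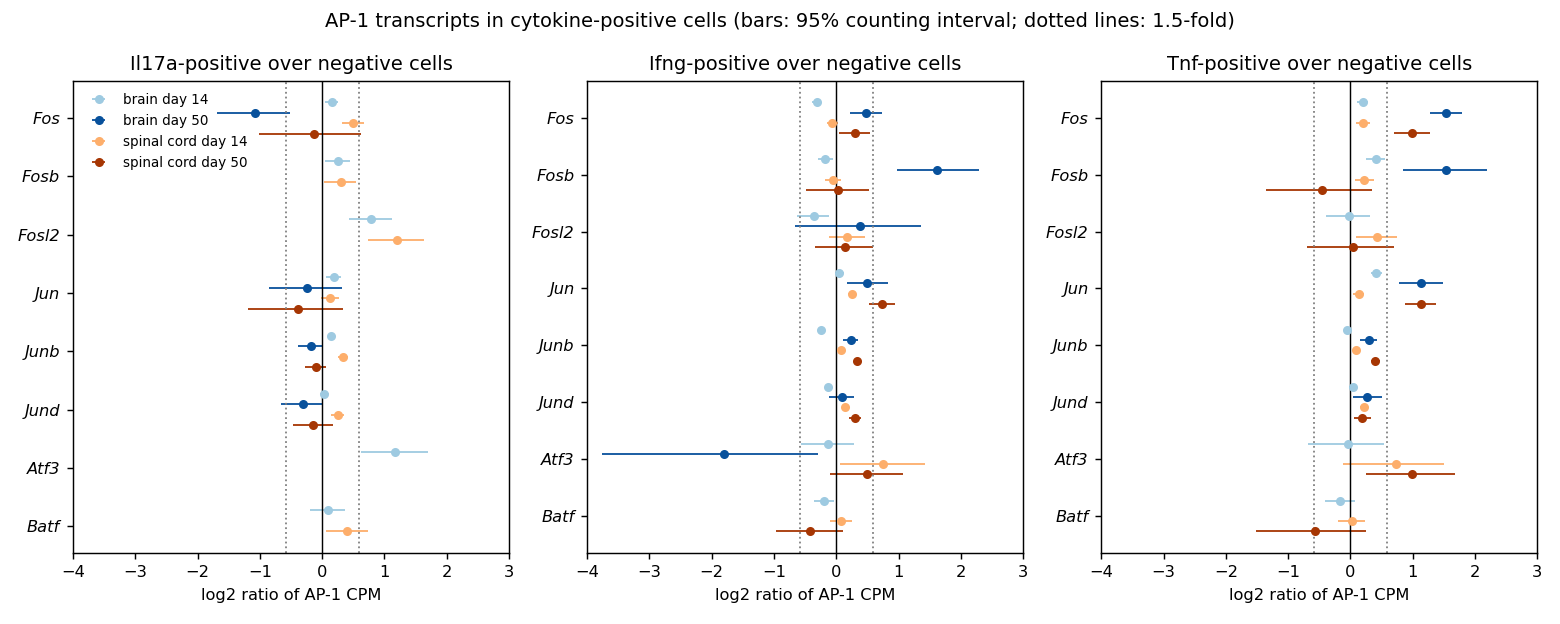
Log2 ratio of AP-1 CPM in cells with over cells without a UMI of Il17a (left), Ifng (middle) and Tnf (right), for each library (colours), with 95% counting intervals and dotted lines at 1.5-fold. Genes with fewer than 10 UMIs expected in the positive cells are not drawn. Fos and Jun lie right of the dotted line in Tnf-positive cells of the 2 day 50 libraries, as does Fosl2 in Il17a-positive cells at day 14.

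Of the 10 genes that mark T cell states, Cd69 had the most members above 0 in every library, among members read in 3 or more. In cells with a Cd69 UMI, 6 of the 8 members were above 0 in every library, where 12.5% of 6339 genes were. The 6 were Fos, Fosb, Fosl2, Jun, Junb and Jund. Fosl2 averaged 0.23, and its interval held 0 in every library, as did that of Junb in both brain libraries. Fos had 601 against 380 CPM in brain at day 14, 1480 against 494 CPM in brain at day 50, 332 against 206 CPM in cord at day 14 and 305 against 157 CPM in cord at day 50. Its log2 ratio averaged 0.97 ± 0.43 (SD over 4 libraries). Jun averaged 0.85 ± 0.30. Both passed 1.5-fold in all 4 libraries, as did 0.0631% of genes, which is 4 genes, the others being Cxcl10 and Emp1, read in 3 libraries. Jun in the day 14 cord library was at 0.58, on the edge of the call.

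Fosb averaged 0.96 ± 0.40 and passed in 3 libraries, with 0.56 (-0.14 to 1.31) in brain at day 50. Jund averaged 0.28 and Junb 0.13, so the most abundant members moved little with Cd69, and Batf was below 0 in every library, as were 13.3% of genes, with a mean of -0.37 and no interval that left out 0. Cells with a Cd69 UMI made up 60.9% and 63.3% of thinned brain cells and 46.6% and 34.0% of thinned cord cells at day 14 and day 50, the same order of libraries as for the share of cells with Fos.

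The surface protein gave another picture. Cells were ranked by their raw CD69 antibody count and divided in 3 equal groups, and the highest group was compared with the lowest. Fos was lower in the CD69-high group of every library, at 470 against 562 CPM in brain at day 14, 1095 against 1386 CPM in brain at day 50, 252 against 298 CPM in cord at day 14 and 192 against 235 CPM in cord at day 50. The log2 ratio averaged -0.28 ± 0.04, with all 4 intervals below 0, none past 1.5-fold, and 17.5% of genes below 0 throughout. Jun averaged 0.15 ± 0.26. Atf3 could be read in 3 libraries and averaged 0.91 ± 0.78, with 0.03 in brain at day 14, 1.16 (0.30 to 2.08) in cord at day 14 and 1.53 (0.76 to 2.37) in cord at day 50. The Fos message was thus higher with the Cd69 message and lower with the CD69 protein in the same cells.

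**Figure D5:**
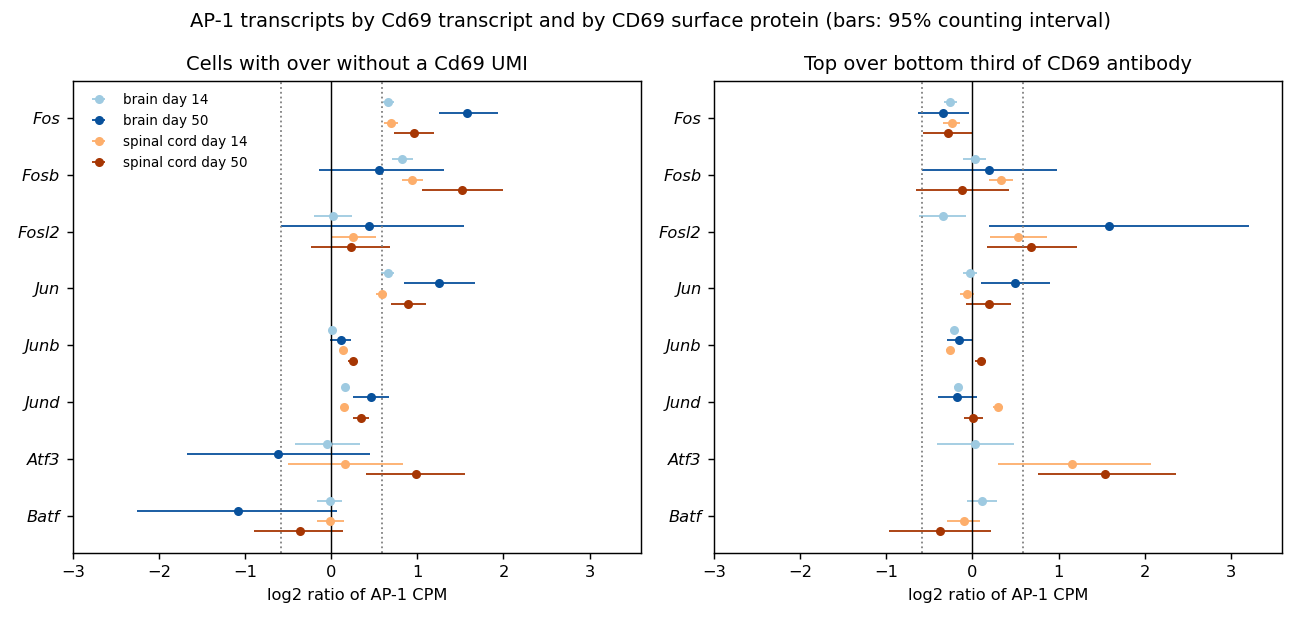
Log2 ratio of AP-1 CPM in cells with over cells without a Cd69 UMI (left) and in the highest over the lowest of 3 equal groups by CD69 antibody count (right), for each library (colours), with 95% counting intervals and dotted lines at 1.5-fold. Fos lies right of 0 in all 4 libraries on the left and left of 0 in all 4 on the right.

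With the ATP receptor P2X7, 5 of the 8 members were above 0 in every library in the highest over the lowest antibody group (Fosb, Jun, Junb, Jund and Atf3), where 12.8% of 6343 genes were. Fosb averaged 0.68 ± 0.40, Jun 0.42 ± 0.26 and Atf3 1.62 ± 1.46. Intervals lay above 0 in 4 libraries for Fosb, in 3 for Jun and in 2 each for Junb, Jund and Atf3. Atf3 was at 0.15 (-0.30 to 0.60) in brain and 0.58 (-0.20 to 1.39) in cord at day 14. Its 2.81 (1.06 to 5.20) in brain at day 50 came from 79 cells per group, the lowest with a median antibody count of 0. With the chemokine receptor CXCR6 it was Fosb, Jun and Atf3, against 19% of 6340 genes, with means of 0.38 ± 0.37 for Fosb, 0.59 ± 0.49 for Jun and 1.18 ± 0.73 for Atf3. Fos had mixed signs, above 0 with P2X7 in both day 14 libraries and below 0 in both day 50 libraries, and above 0 with CXCR6 in brain at day 50 only. Batf, read in 3 libraries, was below 0 with CXCR6 in each, as were 18.9% of genes. With the Cxcr6 message in place of the protein, Fosb, Junb and Batf were below 0 in every library read, as were 17.5% of 6578 genes. Fosb averaged -0.37 ± 0.40 there, the other sign from that with the CXCR6 protein, and Jun averaged 0.20 and Atf3 0.14, with mixed signs.

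Among the other state genes, Junb and Jund were above 0 in every library with Klf2, a factor of recirculating T cells (means 0.26 and 0.23). These were 2 of the 8 members, where 16.5% of genes were above 0 throughout. The interval of Junb held 0 in brain at day 50, at 0.06 (-0.06 to 0.18). That of Jund held 0 in cord at day 14, at 0.006 (-0.05 to 0.06). Fos averaged 0.67 ± 0.48 with Klf2 and was above 0 in 3 of 4 libraries. Atf3 averaged -0.95 ± 0.97 with Klf2 and was past 1.5-fold lower in 3 of 4 libraries, with an interval that held 0 in cord at day 50. Those libraries had few Atf3 UMIs in Klf2-positive cells: 3 in brain at day 50, 8 in cord at day 14 and 9 in cord at day 50. The share of all genes that much lower was 13.7%, 6.83% and 10.5% there. In brain at day 14, with 88 such UMIs, Atf3 stood at 0.18. With Eomes, a factor of cytotoxic and memory T cells, Jun, Junb and Jund were below 0 in all 3 libraries that could be read, 3 of 5 members, as were 25.1% of genes, with means of -0.64, -0.24 and -0.35. These libraries had 52 to 108 Eomes-positive cells. The interval of Jun held 0 in brain at day 14 and cord at day 50, and those of Junb and Jund in cord at day 14. In cord at day 14 Jun stood at -1.35 (-2.11 to -0.69), from 18 UMIs in the positive cells. In Mki67-positive, dividing cells of the 2 day 14 libraries Junb averaged -0.54.

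Depth and RNA measures differed between the cells compared, and their part in the results was not tested. Fos-positive cells had a median of 4107 UMIs before thinning and Fos-negative cells 4481 in brain at day 14, and 4651 against 5068 in cord at day 14. At day 50 the medians were 3701 against 3766.5 in brain and 3639 against 3576 in cord. The median ribosomal share was 34.8% against 33.7% at day 14 and 37.5% against 36.2% at day 50 in brain, and the mitochondrial share 2.95% against 2.9% and 2.3% against 2.25%. The gaps were wider for Junb. Cells above their library's median Junb count had a ribosomal share of 35.3% against 33.2% in brain at day 14 and 38.6% against 36.05% at day 50. Their median depth was 3932 against 4670 UMIs and 3199 against 4012 UMIs.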

How the data were processed

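Droplet libraries of RNA and surface antibodies from sorted T cells were read in 4 groups, 1 library each. Each deposited matrix holds raw UMI counts of genes and antibodies by cell barcode, per the file headers, made with Cell Ranger 6.1.1 on mm10, per the submitters' processing notes. The members, gene lists, splits and alternatives were chosen with earlier results of these data known. Kept barcodes had 500 or more genes and no more than 10% of UMIs from mitochondrial genes. Doublet calls of Scrublet (scanpy 1.11.5) were removed, 15 in each day 50 library; it called 0 at day 14, so doublets stayed in there. Counts were summed per library (47272714 and 1115291 UMIs in brain at day 14 and day 50, 50710551 and 6017616 in cord) and scaled to CPM, with exact Poisson intervals for levels and conditional binomial intervals for ratios (scipy 1.17.1). UMIs count molecules, and intervals cover counting error only. Where 0 UMIs were seen, the limit is 3 counts, between 0.0592 and 2.69 CPM. For splits, classes needed 20 cells and a gene 10 expected UMIs, a limit set after seeing the data. The antibody features are called by their identifiers, which match the proteins in the labels, although the name column gives CD3 and CD16 beside those of P2X7 and CXCR6.

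All 8 genes are named in each comparison, up to 3 genes of each list by size of ratio, and the 5 genes most correlated with each member. The ratio and its call were tested on simulated Poisson counts drawn from a library's summed profile. Of 200 genes changed 2-fold, 96.5% to 100% were recovered over the 4 comparisons, and 0% to 1.91% of unchanged genes were called. Of the intervals, 94.7% to 95.8% held the true value. The simulation had no cells, so it checks the code and not the spread from UMIs that lie in few cells. Alternatives were other filters, thinning, weights, thresholds and cell subsets.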

Additional observations from a re-analysis of the deposited data

Results flagged for a closer look

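Fosb and Jun had opposite signs in the 2 tissues over time. The log2 ratio of day 50 over day 14, relative to the all-gene median, was 0.62 in brain and -0.78 in spinal cord for Fosb, and 0.75 in brain and -0.19 in spinal cord for Jun. With 1 library per group the difference was not tested across animals.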

How the results depend on the processing

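No paired analysis was possible because no group has a second library and no label ties brain to cord by mouse. Of 512 ratios of members under the alternatives, 471 kept sign and call, 19 lost the call and 11 gained it. The 2-fold threshold and the added counting interval changed the call rule alone, so no sign could change there. Filters at 50 CPM or 10 UMIs, and leaving out the median or the mitochondrial and ribosomal UMIs, only shifted all ratios of a comparison alike. In 1 of the 512 a called value changed sign, Fosb over time in brain, at -0.088 in cells with no cytokine UMI. In 10 an uncalled value changed sign and stayed uncalled: Fos over time in cord (5 settings, down to -0.25 against 0.01), Fosl2 in cord over brain at day 50 (2 settings, up to 0.11), Batf in the same comparison (0.07) and over time in brain (0.18), and Jun over time in cord (0.05). The count of members higher at day 50 in brain was 4 at a 2-fold threshold and 4 in cells with no cytokine UMI, against 7. Over all genes these settings called 114 and 494 higher, against 402. The count of members lower in brain was 1 (Batf) with 1000 or more genes per cell and 1 in cells with a Cd69 UMI, against 0. All genes lower there numbered 328 and 346, against 291. In cord the count of members lower was 0 at 2-fold, 2 in cells with no cytokine UMI (Fosb and Jun) and 0 in cells with a Cd69 UMI, against 1. All genes lower in cord numbered 101, 509 and 503 in these settings, against 464. Pairs correlated above 0.2 numbered 2 at 1000 UMIs per cell, against 8, and the mean correlation of each of these 8 was lower there. Without thinning, 1 pair of member and cytokine passed 1.5-fold in every library, against 0. The share of all genes past it without thinning was not computed. The splits by Cd69 and the set without the 5% of cells with most UMIs were chosen after seeing the data. Over all genes, leaving out the median subtraction gave 280 higher and 497 lower in brain over time against 402 and 291, 264 higher and 1091 lower in cord over time against 511 and 464, and 419 higher and 111 lower in cord over brain at day 14 against 159 and 162. At 2-fold, 114, 187, 6 and 15 genes were higher and 51, 101, 59 and 60 lower in the 4 comparisons. With all genes of 10 or more UMIs, 1355 to 2459 were higher and 1314 to 2797 lower. In the day 50 brain library 333 cells limit the precision.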
